A study of Mus musculus with 12 samples.

Results

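The LIF and STAT3 pathway was followed through 9 genes, chosen by symbol: the ligand gene Lif, the receptor genes Lifr and Il6st, the kinase gene Jak1, the transcription factor gene Stat3, the inhibitor gene Socs3 and the target genes Pim1, Pim3 and Gbx2. All 9 were found among the 24495 genes of the count table and all passed the filter on low counts, which left 15532 genes for testing. RNA-seq was made from CCE-Nanog-GFP mESCs, a mouse embryonic stem cell line with a green fluorescent reporter for Nanog that was sorted for GFP before use. All libraries came from cells with a lentiviral short hairpin RNA under puromycin selection, either a scrambled one (shSC, labelled scr with the genotype WT) or one against Ctsl, the gene of the lysosomal protease cathepsin L (shCTSL, labelled KD with the genotype CTSL KD). Undifferentiated cells of each line in medium with LIF and serum made up Day 0. Embryoid bodies (EBs), grown without LIF and with all-trans retinoic acid (RA), were taken at Day 2 and Day 4. Every one of the 6 groups had 2 biological replicates. LIF withdrawal, RA and aggregation began together, so their parts in a change between days cannot be told apart. The labels do not say which hairpin against Ctsl was sequenced, and in bulk RNA fewer cells of a type and less RNA per cell cannot be told apart.

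LIF is the cytokine that is added to mESC cultures to hold them undifferentiated. It binds LIFR, which then pairs with the shared signalling subunit gp130, encoded by Il6st, and kinases of the Janus family, chiefly JAK1, phosphorylate the receptor tails and STAT3. Phosphorylated STAT3 enters the nucleus and activates genes such as Socs3, whose product in turn blocks the receptor and its kinases. RNA-seq measures the transcripts of these genes and not the phosphorylation that carries the signal.

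The libraries held 11171111 to 27155553 counted reads, and those of single members ranged from 60 reads for Lif to 4246 for Il6st. Levels are normalized CPM, which scale the counts by library size and a TMM factor, and levels of different genes are compared only as RPKM, which also divides by exonic length. A gene is called changed when its adjusted p is under 0.05 and its change is at least 1.5-fold, or 0.585 on the log2 scale. Log2 fold changes are given with the SE of the fit. The targeted gene Ctsl stood lower in both shCTSL libraries than in both shSC libraries on every day, by −1.89 at Day 0, −1.06 at Day 2 and −0.83 at Day 4 on the log2 scale, of which the first 2 are called. The 2 shCTSL Day 2 libraries differed from each other far more than the pairs of the other 5 groups: the SD of their log2 ratio over genes was 0.604, against 0.178 to 0.269, and the ribosomal gene Rn45s took 3.43% of the counts in replicate 1, against 0.17 to 1.43% in the other 11 libraries. Values of both its libraries are given for each member, and the calls that change when one of them is left out are given beside the results.

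The Day 0 cells carried the pluripotency markers. The 5 pluripotency markers Nanog, Pou5f1, Sox2, Zfp42 and Esrrb summed to 4428 to 4853 normalized CPM in the 4 Day 0 libraries, to 700.1 to 820.8 at Day 2 and to 224.7 to 298 at Day 4, and all 5 fell from Day 0 to Day 4 in both lines. The 6 markers of extraembryonic endoderm (Gata4, Gata6, Sox17, Dab2, Afp, Ttr) rose in both lines, from sums of 8.54 to 10.9 to sums of 463.1 to 535.4, and 2 of them were at 0 in shSC and 1 in shCTSL at Day 0. Markers of mesoderm and endothelium summed to 62.2 to 88.7 at Day 0 and 172 to 234 at Day 4, those of the neural lineage to 229 to 263 and 136 to 171, and those of fibroblasts to 6.53 to 10.8 and 53.4 to 64.4. The sums do not stand for every marker. Of the 5 mesoderm and endothelium markers, 3 were called higher and 1 lower at Day 4 against Day 0 in shSC. In shCTSL 3 were higher and 2 lower. Pecam1, with Day 0 means of 83.5 (shSC) and 60.5 (shCTSL), stood at 45.2 and 35.1 at Day 4. Of the 4 fibroblast markers, 3 were called higher and 1 lower in each line. The lower neural sum came from Tubb3, whose Day 0 means were 169.6 (shSC) and 147.7 (shCTSL). Its Day 4 means were 11.1 and 10.4. Of the 5 neural markers, shSC had 2 called higher and 1 lower at Day 4 against Day 0. The shCTSL line had 3 higher and 1 lower. Their median log2 fold changes were 0.44 (shSC) and 0.63 (shCTSL), so the neural sum does not stand for most of its markers. Of the blood and macrophage markers, whose cells also use this pathway, Csf1r was at 0 in all Day 0 libraries, Ptprc did not pass the count filter, and the 4 markers together summed to 8.67 to 26.3 in any library. These cell type markers moved with every comparison between days below, and their part in the members' changes was not tested.

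Between Day 0 and Day 2 the transcripts of 6 of the 9 genes fell in both lines, and none rose. The 6 were Socs3, Pim3, Lifr, Stat3, Lif and Pim1, with log2 fold changes from −3.92 for Socs3 to −0.85 for Pim1 in shSC and from −3.68 for Socs3 to −0.74 for Lif in shCTSL. Il6st, Jak1 and Gbx2 were not called. Of all genes tested 25.3% were called lower and 29.3% higher in shSC, and 24.6% and 30.9% in shCTSL, so a member falling is in itself common, and the median over all genes was 0.019 and 0.079 on the log2 scale, beside −0.90 and −0.81 over the members. From Day 0 to Day 4, 5 members fell in both lines: Socs3, Gbx2, Pim3, Lifr and Pim1. Il6st was called higher in shSC, and no member was called higher in shCTSL. The background for this comparison was 28.7% lower and 32.1% higher in shSC and 27.6% and 32.3% in shCTSL, with medians of 0.029 and 0.061 over all genes and −1.35 and −1.13 over the members.

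**Figure D1:**
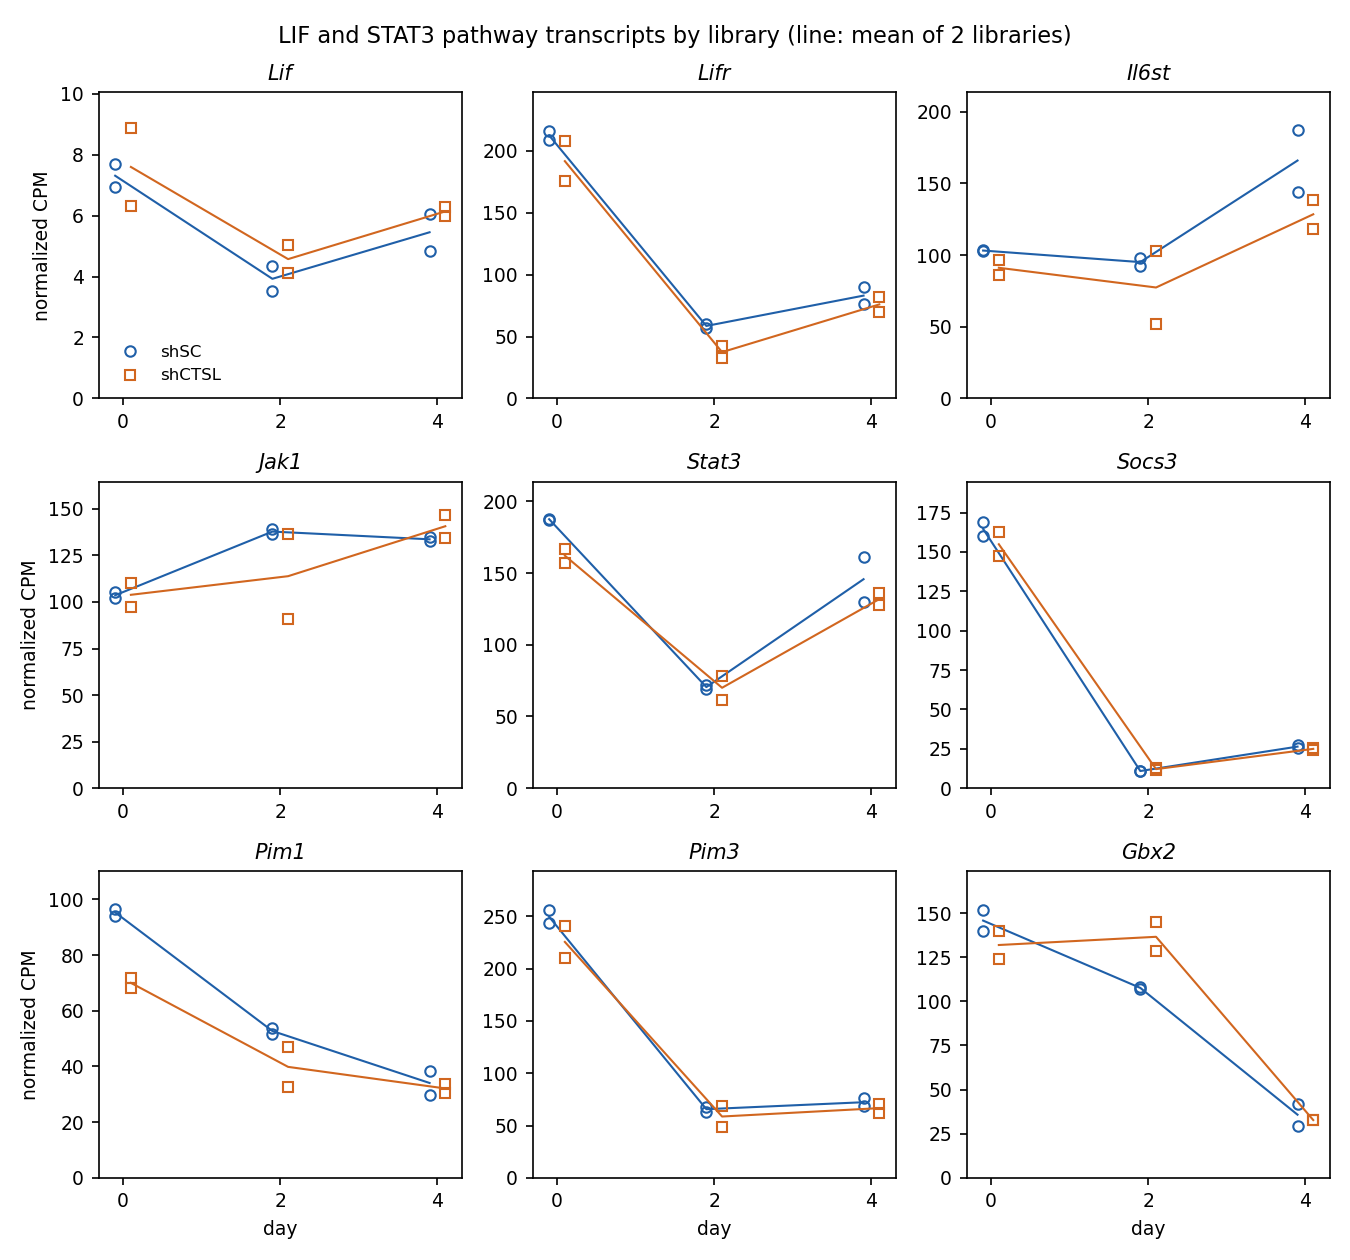
Normalized CPM (y axis, from 0, a separate scale for each gene) of the 9 genes at Day 0, Day 2 and Day 4 (x axis) in shSC (circles) and shCTSL (squares), 1 point per library, with lines through the means of the 2 libraries. Socs3, Pim3, Lifr and Stat3 dropped from Day 0 to Day 2 in every library, Gbx2 only reached its low level at Day 4, and the shCTSL Day 2 libraries of Il6st and Jak1 lie far apart.

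Between Day 2 and Day 4 the members moved both ways. In shSC, 3 of them rose (Socs3, Stat3 and Il6st) and 2 fell (Gbx2 and Pim1), against 11.4% of all genes called higher and 12.4% lower. In shCTSL, 3 rose (Stat3, Socs3 and Lifr) and 1 fell (Gbx2), against 11% and 12.4%. The median over all genes was 0.018 in shSC and −0.016 in shCTSL, and over the members 0.49 and 0.42. Lifr was called in shCTSL and not in shSC, where its change of 0.51 was short of the 1.5-fold threshold, and Il6st and Pim1 were called in shSC and not in shCTSL; the tests of these differences between the lines are given further on, and none passed with all libraries. Stat3 had thus regained most of its Day 0 level by Day 4, while Socs3, Pim3 and Lifr had not.

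**Figure D2:**
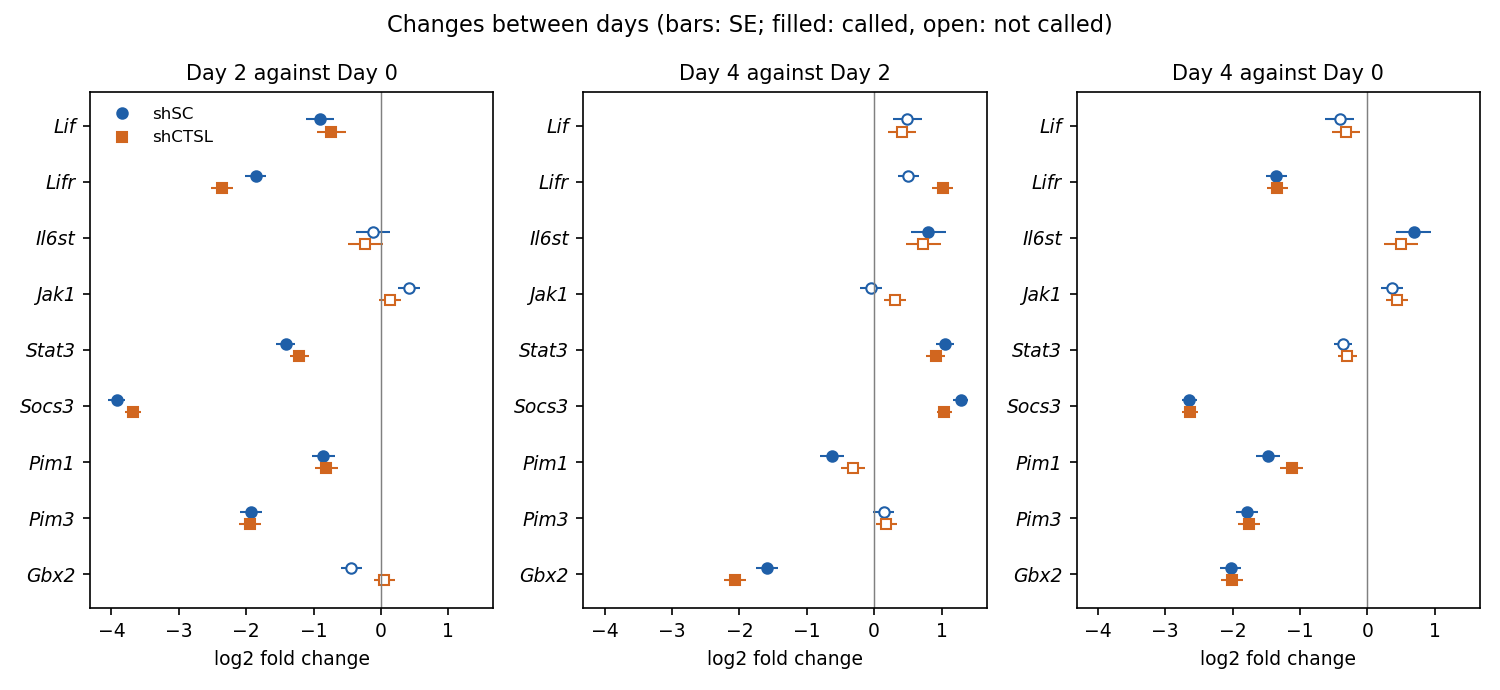
Log2 fold changes (x axis) of the 9 genes for Day 2 against Day 0, Day 4 against Day 2 and Day 4 against Day 0 in shSC (circles) and shCTSL (squares), with bars of 1 SE. Filled symbols are called and open symbols are not; Socs3 has the most negative change in the first and last panels, −3.92 and −2.64 in shSC.

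Lif (chromosome 11 of mm9, 4157560 to 4172517) encodes the cytokine itself, which stem cells and their differentiating neighbours can make in addition to the LIF of the medium. Its transcript was scarce, at 6.9 and 7.7 normalized CPM in the shSC Day 0 libraries, 3.5 and 4.3 at Day 2, and 6.1 and 4.9 at Day 4. The shCTSL libraries held 8.9 and 6.3, 4.1 and 5.0, and 6.3 and 6.0 on the same days. All 4 Day 2 libraries lay below all 4 Day 0 libraries, and within each line the Day 4 libraries lay between. The fall to Day 2 was −0.90 ± 0.21 SE in shSC (adjusted p = 0.0038) and −0.74 ± 0.22 SE in shCTSL (adjusted p = 0.0127). The shCTSL call was lost in a fit of the libraries compared alone (−0.72, adjusted p = 0.102), with limma-voom and library weights (−0.73, adjusted p = 0.26), on leaving out replicate 1 of shCTSL Day 0 (−0.46, adjusted p = 0.16), and on leaving out replicate 1 of shCTSL Day 2, where −0.58 is just under the fold threshold. At Day 4 Lif stood at 74.6% of its Day 0 mean in shSC and 80.8% in shCTSL, and neither difference was called (adjusted p = 0.106 and 0.202).

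Lifr (chromosome 15, 7079559 to 7147489) encodes the receptor chain that binds LIF. Its level was 216 and 209.2 normalized CPM in shSC at Day 0, 57.0 and 60.1 at Day 2, and 90.1 and 76.1 at Day 4. In shCTSL it was 175.8 and 207.8, then 32.4 and 42.4, then 81.7 and 70.2. The lowest Day 0 library thus exceeded the highest later library by far in both lines, and the 2 shCTSL Day 2 libraries were the lowest of the 12. The fall to Day 2 was −1.86 ± 0.16 SE in shSC (adjusted p = 4.04e-06) and −2.36 ± 0.16 SE in shCTSL (adjusted p = 9.88e-07). From Day 2 to Day 4 the transcript regained 1.02 ± 0.16 SE in shCTSL (adjusted p = 0.000957), and the increase of 0.51 ± 0.15 SE in shSC (adjusted p = 0.0311) was too small to be called. The shCTSL call was lost in a fit of the libraries compared alone (1.01, adjusted p = 0.0594), and the shSC change was called without shSC Day 4 replicate 2 (0.62, adjusted p = 0.0442). Both lines met at nearly the same share of the Day 0 mean at Day 4, 39.1% in shSC and 39.6% in shCTSL, with changes of −1.35 and −1.34 (SE 0.15 for both, adjusted p = 2.51e-05 and 2.89e-05).

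Il6st (chromosome 13, 113265216 to 113297068) encodes gp130, the signalling chain that LIF shares with interleukin 6, interleukin 11, ciliary neurotrophic factor and oncostatin M. Unlike Lifr, it was not called lower on any day. In shSC it stood at 102.9 and 103.5 normalized CPM at Day 0, 97.9 and 92.4 at Day 2, and 187.6 and 144.4 at Day 4. In shCTSL it stood at 85.9 and 96.4, 52.2 and 102.6, and 138.7 and 118.3. Both Day 4 libraries of each line lay above all its earlier ones, and the shCTSL Day 2 libraries lay on both sides of the Day 0 ones. The rise from Day 0 to Day 4 was 0.69 ± 0.26 SE in shSC (adjusted p = 0.0348), and the corresponding 0.50 in shCTSL was not called (SE 0.26, adjusted p = 0.111). From Day 2 to Day 4 the change was 0.80 ± 0.26 SE in shSC (adjusted p = 0.038) and 0.73 ± 0.26 SE in shCTSL (adjusted p = 0.0564, not called). The last of these was called with DESeq2 (0.75, adjusted p = 0.0324), without the filter on low counts (0.69, adjusted p = 0.0149) and with exonic length offsets (0.72, adjusted p = 0.0163). Leaving out shCTSL Day 2 replicate 2 gave 1.30, which was called (adjusted p = 1.06e-06), and leaving out replicate 1 gave 0.30. The change from Day 0 to Day 2 in shCTSL likewise hung on one library: leaving out replicate 2 gave −0.80, which was called (adjusted p = 8.99e-05), and leaving out replicate 1 gave 0.22. The shSC call for Day 4 against Day 0 was lost on leaving out any of 7 libraries, with an adjusted p of 0.21 without shSC Day 4 replicate 1, and with exonic length offsets, where the change was 0.56. The shSC call for Day 4 against Day 2 was lost on leaving out any of 10 libraries.

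Taken as RPKM, the receptor chains stood close together at Day 0 and apart in the EBs. In undifferentiated shSC cells Lifr stood at 20.6 ± 0.467 RPKM (mean ± SD, n = 2) and Il6st at 19.8 ± 0.0927. At Day 2 these values were 5.67 ± 0.21 and 18.3 ± 0.751, and at Day 4 they were 8.04 ± 0.961 and 31.9 ± 5.87. In shCTSL the Day 0 libraries of both genes overlapped, at 18.6 ± 2.2 for Lifr and 17.5 ± 1.42 for Il6st, and at Day 4 Lifr stood at 7.35 ± 0.79 and Il6st at 24.7 ± 2.78. Lifr was therefore the scarcer transcript of the receptor pair in all EB libraries of both lines. These levels assume that every annotated exon is used and were not tested between genes.

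Jak1 (chromosome 4, 100824972 to 100937887), the gene of the main kinase at gp130, had the flattest course of the members. It stood at 101.9 and 105.3 normalized CPM in shSC at Day 0, 136.5 and 139.2 at Day 2, and 132.7 and 134.7 at Day 4. The shCTSL libraries held 97.4 and 110.3, 91.0 and 136.8, and 146.9 and 134.5. The later shSC libraries all lay above the Day 0 ones, but the change of 0.41 to Day 2 (SE 0.16, adjusted p = 0.0493) was under the fold threshold. In shCTSL the Day 2 libraries spanned the Day 0 ones (0.13, SE 0.17, adjusted p = 0.495), and the change to Day 4 was 0.44 ± 0.17 SE (adjusted p = 0.0367), again under the threshold. From Day 2 to Day 4 in shCTSL the change was 0.30 ± 0.16 SE (adjusted p = 0.1935, not called). Without shCTSL Day 2 replicate 2 the change was 0.63 and called, with replicate 1 alone for its group. The change was 0.02 without replicate 1.

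Stat3 (chromosome 11, 100746412 to 100800854) encodes the transcription factor that is activated by LIF. Its transcript made a dip and a return. In shSC the libraries held 187.1 and 187.9 normalized CPM at Day 0, 72.0 and 68.9 at Day 2, and 161.4 and 130.0 at Day 4. In shCTSL they held 157.3 and 167.0, 61.8 and 78.2, and 136.1 and 127.5. No Day 2 library of either line reached any Day 0 or Day 4 library, and every Day 4 library of a line stayed below its Day 0 libraries. The fall to Day 2 was −1.41 ± 0.14 SE in shSC (adjusted p = 1.19e-05) and −1.21 ± 0.14 SE in shCTSL (adjusted p = 3.44e-05). The rise that followed was 1.05 in shSC and 0.91 in shCTSL (SE 0.14 for both, adjusted p = 0.000363 and 0.000925), and the shCTSL call was lost in a fit of the libraries compared alone (0.90, adjusted p = 0.0637). At Day 4 Stat3 had returned to 77.7% of its Day 0 mean in shSC and 81.3% in shCTSL, and what remained, −0.36 ± 0.14 SE in shSC (adjusted p = 0.0361) and −0.30 ± 0.14 SE in shCTSL (adjusted p = 0.0765), was not called. With exonic length offsets the first of these was −0.72 (adjusted p = 5.1e-05) and was called.

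Socs3 (chromosome 11, 117827393 to 117831361) encodes the inhibitor that closes the feedback loop on gp130 and JAK1. It is one of the best known direct targets of STAT3, which binds palindromes of the form TTCNNNGAA. The 250 bases before its protein-coding transcript in mm9 (minus strand, printed 5′ to 3′, with the palindrome in capitals) are shown because no other member changed as much:

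Socs3 promoter, chr11:117830501-117830750: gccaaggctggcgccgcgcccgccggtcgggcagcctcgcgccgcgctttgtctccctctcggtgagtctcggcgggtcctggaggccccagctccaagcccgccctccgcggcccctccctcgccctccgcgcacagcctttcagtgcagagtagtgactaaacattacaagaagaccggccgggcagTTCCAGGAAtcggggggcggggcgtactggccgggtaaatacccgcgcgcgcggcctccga

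The palindrome lies 61 to 53 bases before the transcript start. The fixed letters of the motif read alike on both strands, and 6.52% of the 46006 windows of this length before protein-coding transcripts hold it (10.2% of 22232 genes in any window). Among the members it was in the window of Socs3 and in none of the other 16 windows of the other 8 genes, so 1 of 9 members held it. Among the 46 other pathway genes with a window, 5 held it. The sites of 3 of these 5 are shown with 10 bases on each side, to set beside the Socs3 site:

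Socs3, chr11:117830553-117830561, minus strand: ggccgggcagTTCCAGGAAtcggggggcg

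Icam1, chr9:20820342-20820350, plus strand: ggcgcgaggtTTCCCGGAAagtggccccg

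Bcl6, chr16:23989048-23989056, minus strand: agcaaattagTTCTCAGAAttccagaggc

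Il11ra1, chr4:41707032-41707040, plus strand: caggggcaccTTCATCGAAtacagtcagc

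Of the genes shown, Socs3 and Icam1 fell from Day 0 to Day 4 in both lines and Bcl6 and Il11ra1 rose, which is not a tally over all genes that hold the motif. Cish, whose sites are not shown, holds 4 such palindromes over its 3 windows and was not called in shSC (0.46, SE 0.22, adjusted p = 0.0809), and it rose by 0.62 ± 0.22 SE in shCTSL (adjusted p = 0.0286). It is named for its sequence, after its values were seen. A match of these letters is a description and does not show that STAT3 was bound.

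The Socs3 transcript had the deepest fall of the members. The shSC libraries held 160.3 and 169.0 normalized CPM at Day 0, 10.9 and 10.8 at Day 2, and 27.5 and 25.2 at Day 4. The shCTSL libraries held 162.5 and 147.2, 11.3 and 12.8, and 24.2 and 25.6. The 3 days did not overlap in either line, and at each day the lines lay close together. At Day 2 the mean was 6.59% of the Day 0 mean in shSC and 7.79% in shCTSL. The fall was −3.92 on the log2 scale in the former and −3.68 in the latter (SE 0.12 for both, adjusted p = 1.01e-08 and 1.59e-08). It rose again to Day 4 by 1.28 ± 0.11 SE in shSC (adjusted p = 3.25e-05) and by 1.04 ± 0.11 SE in shCTSL (adjusted p = 0.000127), when Stat3 also rose. Even so, it stood at 16.0% of its Day 0 mean in shSC and 16.1% in shCTSL at Day 4, with a change of −2.64 in both (SE 0.11, adjusted p = 3.37e-08 and 3.84e-08).

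Pim1 and Pim3 encode serine and threonine kinases that promote survival and growth downstream of STAT proteins. Pim3 (chromosome 15, 88692616 to 88696150) had the highest level per length of the members at Day 0, 103 ± 3.72 RPKM in shSC and 93.2 ± 8.89 in shCTSL. In normalized CPM it held 243.2 and 256.0 in shSC at Day 0, 68.0 and 63.3 at Day 2, and 75.9 and 68.7 at Day 4. The shCTSL values were 240.8 and 210.4, 48.3 and 69.0, and 70.9 and 62.4. It dropped once and stayed down: the changes to Day 2 were −1.93 ± 0.16 SE in shSC (adjusted p = 4.36e-06) and −1.94 ± 0.17 SE in shCTSL (adjusted p = 4.12e-06), and those from Day 2 to Day 4 were 0.14 and 0.18 (adjusted p = 0.563 and 0.428). At Day 4 it stood at 29.0% of its Day 0 mean in shSC and 29.5% in shCTSL.

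Pim1 (chromosome 17, 29627757 to 29632390) declined in steps in shSC, while in shCTSL only the first step was called. The shSC libraries held 93.9 and 96.7 normalized CPM at Day 0, 51.8 and 53.6 at Day 2, and 38.4 and 29.8 at Day 4. In shCTSL it started lower, at 71.8 and 68.2, and went to 32.6 and 47.1 and then to 33.7 and 30.4. The 3 days did not overlap in shSC, while in shCTSL Day 2 and Day 4 did. The first step was −0.85 ± 0.17 SE in shSC (adjusted p = 0.00154) and −0.81 ± 0.17 SE in shCTSL (adjusted p = 0.00229), although the shCTSL change was −0.53 without shCTSL Day 2 replicate 1 and then not called. The second step was −0.63 ± 0.17 SE in shSC (adjusted p = 0.0212) and this call needed each of shSC Day 2 replicate 1 (adjusted p = 0.0817 when left out), shSC Day 2 replicate 2 (0.102) and shSC Day 4 replicate 2 (0.155, with a change of −0.46). It was also lost with exonic length offsets (−0.58, adjusted p = 0.0684). In shCTSL the second step was −0.32 ± 0.17 SE (adjusted p = 0.204, not called). By Day 4 Pim1 had fallen by 1.48 in shSC and by 1.13 in shCTSL on the log2 scale (SE 0.18 for both, adjusted p = 3.44e-05 and 0.000254).

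Gbx2 (chromosome 1, 91824537 to 91829865) encodes a homeobox factor that acts downstream of LIF and STAT3 in mESCs and later patterns the midbrain and hindbrain border. It kept its level longer than the other targets. The shSC libraries held 139.8 and 151.7 normalized CPM at Day 0, 108.1 and 107.2 at Day 2, and 29.5 and 42.1 at Day 4. The shCTSL libraries held 140.0 and 123.9, 128.3 and 144.9, and 32.6 and 32.9. All Day 4 libraries lay far below all others, and in shCTSL the Day 0 and Day 2 libraries overlapped. The change to Day 2 was −0.44 ± 0.15 SE in shSC (adjusted p = 0.0292, under the fold threshold) and 0.05 ± 0.15 SE in shCTSL (adjusted p = 0.792). From Day 2 to Day 4 it fell by 1.59 ± 0.16 SE in shSC (adjusted p = 6.67e-05) and by 2.06 ± 0.16 SE in shCTSL (adjusted p = 1.67e-05) on the log2 scale, the reverse of Stat3 and Socs3, which rose in that interval. Its exons share 1372 of 4240 bases with a gene annotated on the opposite strand, D130058E05Rik, and those of Pim1 share 468 of 1972 with Gm16912. The sources used here do not give the strand setting of the counting, so reads of these partners cannot be told apart from those of the members.

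The order of the levels per length changed as the cells left the undifferentiated state. In shSC at Day 0 it ran Pim3, Socs3, Pim1, Gbx2, Lifr, Il6st, Stat3, Jak1 and Lif, from 103 to 1.68 RPKM, with no overlap between neighbours. Overlap of libraries takes no account of error in the exonic lengths. Lifr, Il6st and Stat3, at 20.6, 19.8 and 19.7 RPKM, are therefore not firmly ordered. At Day 4 it ran Il6st, Pim3, Jak1, Pim1, Stat3, Socs3, Gbx2, Lifr and Lif, from 31.9 to 1.25 RPKM, where Il6st and Pim3, Jak1 and Pim1, Pim1 and Stat3, Socs3 and Gbx2, and Gbx2 and Lifr could not be separated by their libraries. Socs3 moved from 56.9 ± 2.13 to 9.12 ± 0.577 RPKM and Jak1 from 14.3 ± 0.326 to 18.5 ± 0.197. The Day 4 order in shCTSL differed from it in the first 2 places only, Pim3 (27.5 ± 2.46) before Il6st (24.7 ± 2.78), whose libraries overlapped.

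Knockdown of CTSL was compared with shSC on each day, and no member was called on any of them. In the fit of all 12 libraries the background was low as well: 0.0386% of genes were called in either direction at Day 0, 0.0644% at Day 2, 0.0129% at Day 4 and 0.27% for the mean over the 3 days. This background depended on the fit. Without both shCTSL Day 2 libraries, 1.37% of genes were called at Day 0 and 5.89% at Day 4. With only the libraries compared, these shares were 2.04% and 4.83%. No member was called on these 2 days in either fit. Over the members the log2 fold changes ran from −0.44 to 0.067 at Day 0, −0.64 to 0.34 at Day 2 and −0.37 to 0.16 at Day 4, with medians of −0.15, −0.16 and −0.12, beside −0.017, 0.017 and −0.0045 over all genes. With an unadjusted p under 0.05 there was 1 member at Day 0, 3 at Day 2, 0 at Day 4 and 2 for all days averaged. Such a p was common: of all 15532 genes tested, 1127, 3014, 1897 and 3510 had it in these comparisons. DESeq2 called 1 member at Day 2, where it called 0.529% of all genes. With limma-voom 0 members were called on each day, beside 1.64%, 0% and 4.65% of all genes at Day 0, Day 2 and Day 4. The SE of these differences ran from 0.11 to 0.26, so with 2 libraries a group a difference near 1.5-fold can be missed.

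Lifr at Day 2 was the member nearest to a call between the lines, and the differences given here for Lifr, Pim1 and Gbx2 are those with an unadjusted p under 0.05, beside the same gene on the other days. Both shCTSL libraries, 32.4 and 42.4 normalized CPM, lay below both shSC libraries, 57.0 and 60.1. The difference was −0.64 ± 0.15 SE (adjusted p = 0.208), and DESeq2 called it (−0.67, adjusted p = 0.0234). Without shCTSL Day 2 replicate 2 it was −0.86 and called (adjusted p = 5e-05), but 31.6% of all genes were then called, and replicate 1, which has the high Rn45s share, stood alone for its group. Without replicate 1 the difference was −0.46, the smallest over the left-out libraries. At Day 0 and Day 4 it was −0.15 and −0.13, and averaged over the days it was −0.31 ± 0.088 SE (adjusted p = 0.145).

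Pim1 was lower in shCTSL with an unadjusted p under 0.05 at Day 0 and Day 2. At Day 0 its shCTSL libraries, 71.8 and 68.2 normalized CPM, lay below the shSC libraries, 93.9 and 96.7, a difference of −0.44 ± 0.17 SE (adjusted p = 0.618). At Day 2 it was −0.40 ± 0.17 SE (adjusted p = 0.25), again with no overlap. Without shCTSL Day 2 replicate 1 it was −0.15, and without replicate 2 it was −0.70 and called (adjusted p = 0.00021). At Day 4 the libraries overlapped. The mean over the days was −0.31 ± 0.10 SE (adjusted p = 0.167). Gbx2 went the other way at Day 2, with 128.3 and 144.9 in shCTSL above 108.1 and 107.2 in shSC, a difference of 0.34 ± 0.15 SE (adjusted p = 0.256). Il6st and Jak1 were called at Day 2 once shCTSL Day 2 replicate 2 was left out (−0.87, adjusted p = 6.68e-05, and −0.60, adjusted p = 5.03e-05), and stood at 0.12 and −0.0028 without replicate 1.

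**Figure D3:**
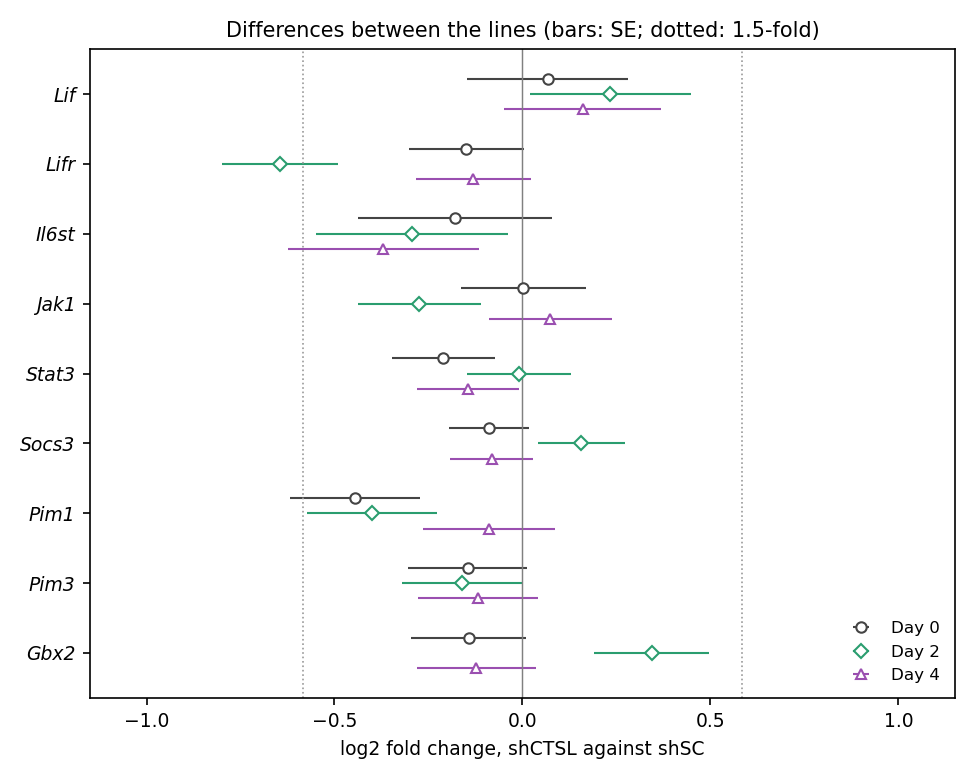
Log2 fold change of shCTSL against shSC (x axis) for the 9 genes at Day 0 (circles), Day 2 (diamonds) and Day 4 (triangles), with bars of 1 SE and dotted lines at 1.5-fold in either direction. Only Lifr at Day 2, at −0.64, lies beyond a dotted line, and no value is called.

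The changes between days were also set against each other across the lines with interaction terms. No member was called for a difference in the change from Day 0 to Day 2, from Day 2 to Day 4 or from Day 0 to Day 4, and of all genes 0%, 0% and 0.00644% were called. In these tests by edgeR, 1716 and 753 genes had an unadjusted p under 0.05 for the first and second change, and DESeq2 called 24 and 6 genes there, none of them a member. Without both shCTSL Day 2 libraries, 1.67% of all genes but no member were called for the change from Day 0 to Day 4. The fall of Lifr to Day 2 was steeper in shCTSL by 0.50 on the log2 scale (an interaction of −0.50, SE 0.22, adjusted p = 0.444), and its return to Day 4 was larger by 0.51 ± 0.22 SE (adjusted p = 1). For Gbx2 the change to Day 2 differed by 0.49 ± 0.22 SE (adjusted p = 0.449). The change from Day 2 to Day 4 differed by −0.08 for Il6st (SE 0.36) and by 0.31 for Pim1 (SE 0.25), with an adjusted p of 1 for both. Without shCTSL Day 2 replicate 2, the interactions of Lifr (−0.70, adjusted p = 0.00284), Il6st (−0.68, adjusted p = 0.00592) and Jak1 (−0.60, adjusted p = 0.00106) for Day 2 against Day 0 were called. So were those of Lifr (0.72, adjusted p = 0.00524), Jak1 (0.68, adjusted p = 0.00116) and Pim1 (0.60, adjusted p = 0.014) for Day 4 against Day 2, when 26% and 14.7% of all genes were called in these tests. Without replicate 1 none of these was called. From Day 0 to Day 4 the interactions of the members ran from −0.19 for Il6st to 0.36 for Pim1, and Socs3, Lifr, Gbx2 and Pim3 were within 0.03 of 0, with an SE of 0.15 to 0.23.

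The other genes of the pathway were followed as 4 lists, which show where the members' course was shared. Among 12 other known STAT3 targets, 9 fell and 2 rose from Day 0 to Day 4 in both lines, against 28.7% of all genes called lower and 32.1% higher in shSC and 27.6% and 32.3% in shCTSL. Their median was −1.89 in shSC and −1.71 in shCTSL. Klf4, a pluripotency factor that LIF sustains through STAT3, went from 298.5 ± 7.27 normalized CPM (mean ± SD, n = 2) at Day 0 to 21.2 ± 0.472 at Day 2 and 27.9 ± 3.25 at Day 4 in shSC, and by −3.33 from Day 0 to Day 4 in shCTSL (SE 0.12, adjusted p = 1.36e-08). Tfcp2l1, which can itself hold mESCs undifferentiated when it is supplied, stood at 603 ± 9.53 and 504.2 ± 52.9 normalized CPM at Day 0 of shSC and shCTSL, and at 30.5 ± 4.33 and 30.2 ± 3.13 at Day 4, changes of −4.30 and −4.06 (SE 0.29 for both). Icam1, a cell adhesion molecule, went from 96.0 ± 8.3 to 12.5 ± 3.87 in shSC. The 2 that rose were Bcl6, a transcriptional repressor, by 2.13 in shSC and 1.42 in shCTSL (SE 0.30 for both), and Pramel7, by 2.99 and 1.59 from levels under 1 normalized CPM. Mcl1, a survival factor, was the one target not called (0.24 and 0.19). Klf4 and Tfcp2l1 are themselves pluripotency genes, whose markers fell over the same days.

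**Figure D4:**
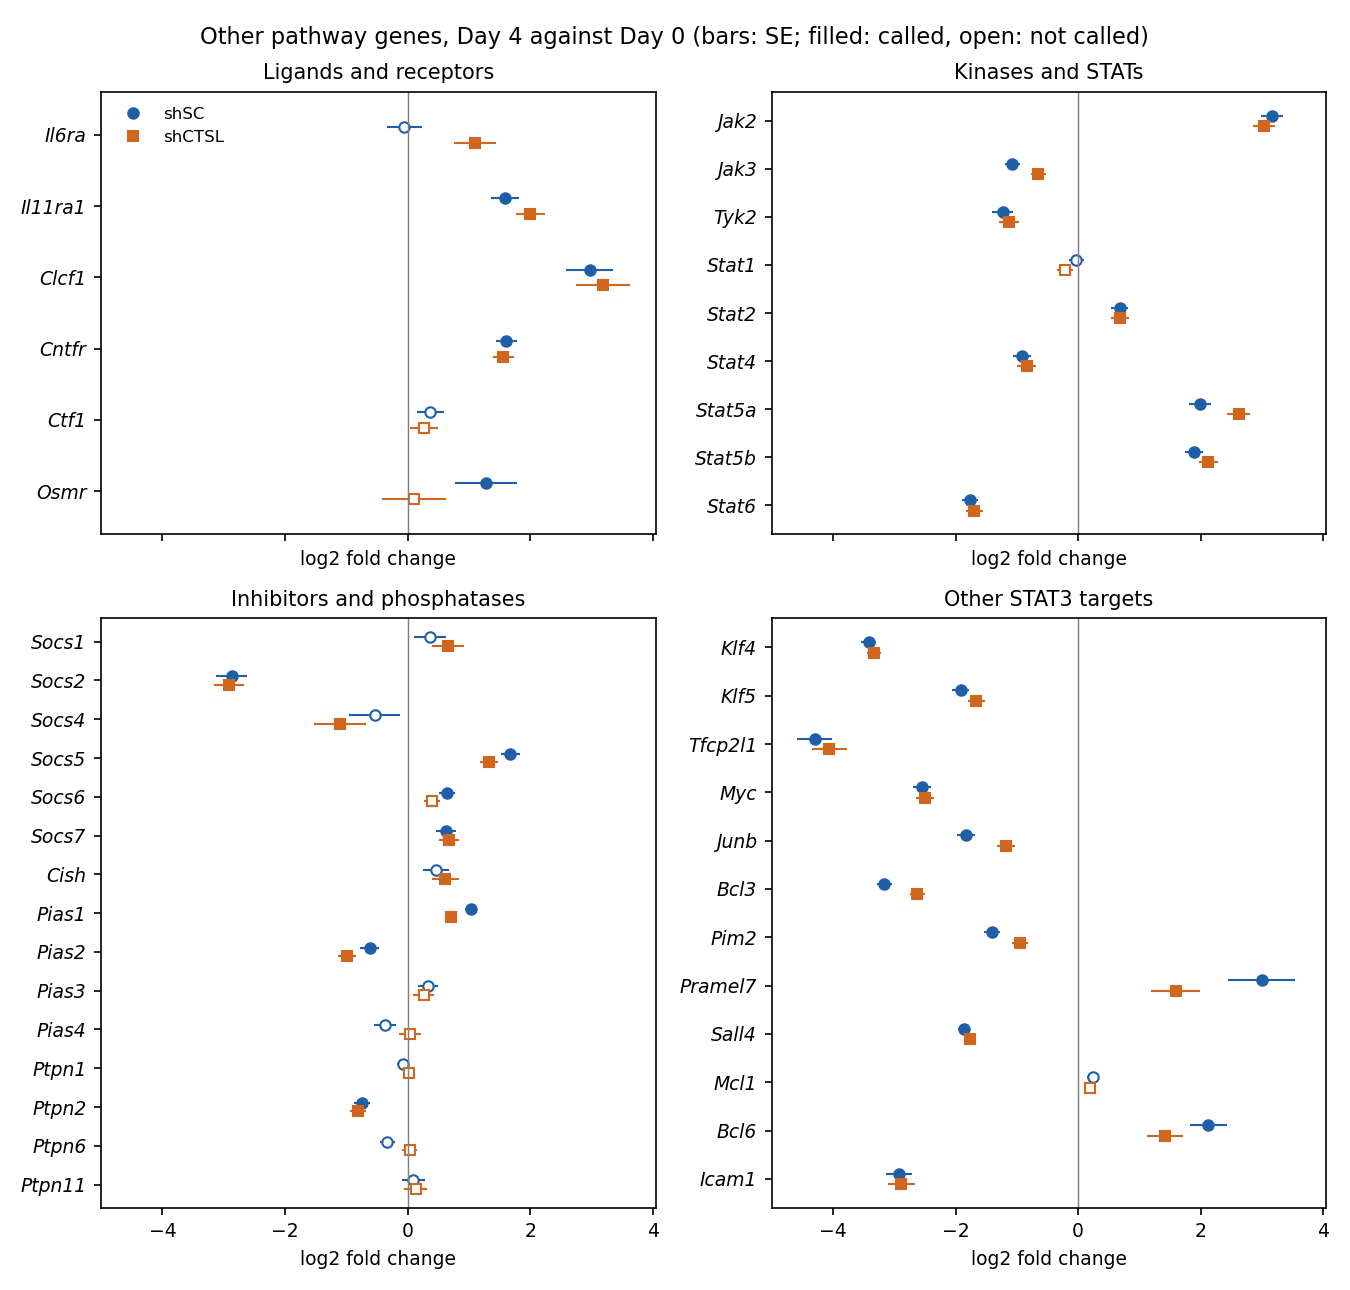
Log2 fold change from Day 0 to Day 4 (x axis) of the other tested pathway genes in 4 lists (1 gene of the ligands and receptors is not drawn), for shSC (circles) and shCTSL (squares), with bars of 1 SE; filled symbols are called. Of the other STAT3 targets 9 of 12 lie to the left and are called in both lines, while the kinases and STATs divide into 4 called higher and 4 called lower.

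Among the 9 other kinases and STATs, 4 rose and 4 fell from Day 0 to Day 4 in both lines (all genes in shSC: 32.1% higher and 28.7% lower), with a median of −0.03 in shSC and −0.21 in shCTSL. Jak2, which serves many cytokine receptors, rose from 9.17 ± 0.181 normalized CPM at Day 0 to 82.1 ± 7.53 at Day 4 (shSC), and from 9.56 ± 1.07 to 77.6 ± 7.32 (shCTSL), by 3.16 and 3.03 (SE 0.18 for both). Stat5a and Stat5b, which recognise the same palindrome as STAT3, rose by 1.99 and 1.89 in shSC and by 2.62 and 2.12 in shCTSL. Stat6 fell by 1.76 and 1.69 on the log2 scale in shSC and shCTSL, Tyk2 fell by 1.23 and 1.13, and Stat4 fell by 0.91 and 0.84. Jak1 and Stat3 themselves were not called over the same interval. The Stat3 and Stat5a genes are neighbours that share 72 exonic bases on opposite strands.

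Of the 11 other ligands and receptors of this cytokine family, 7 passed the count filter, and Il6, Il11, Cntf and Osm did not. From Day 0 to Day 4, 4 rose and 1 fell in each line (all genes: 32.1% and 28.7% in shSC, 32.3% and 27.6% in shCTSL), with a median of 1.28 in shSC and 1.11 in shCTSL over those tested. Clcf1, Il11ra1 and Cntfr rose in both. Cntfr, the receptor chain that lets ciliary neurotrophic factor use LIFR and gp130, stood at 26.2 ± 1.01 normalized CPM at Day 0 and 80.0 ± 3.38 at Day 4 (shSC), or 27.4 ± 4.24 and 81.3 ± 5.91 (shCTSL), and rose by 1.61 and 1.56 (SE 0.17 for both). Clcf1, a ligand of the same receptor, rose by 2.97 and 3.19 but stayed under 3 normalized CPM in the group means. Il11ra1 and Cntfr, both receptor chains, thus rose while Lifr fell.

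The 15 other inhibitors and phosphatases were mixed, with 4 higher and 3 lower in shSC and 5 higher and 4 lower in shCTSL from Day 0 to Day 4, and medians of 0.092 and 0.13. These shares are near or below those of all genes, 32.1% higher and 28.7% lower in shSC and 32.3% and 27.6% in shCTSL. Socs2, of the same family as Socs3, stood at 92.6 ± 2.18 normalized CPM at Day 0 and 12.6 ± 0.588 at Day 4 (shSC), or 82.1 ± 3.29 and 10.9 ± 2.98 (shCTSL), changes of −2.87 and −2.91 (SE 0.25 for both). Socs5 went the other way, by 1.68 and 1.32 (SE 0.15 for both). Pias1 and Socs7 rose in both lines, by 1.03 and 0.71 and by 0.63 and 0.67. Pias2 fell by 0.62 and 0.99 on the log2 scale, and Ptpn2, a phosphatase of JAK1 and of STAT proteins, fell by 0.75 and 0.81. In none of the 4 lists was a gene called between the lines on any day.

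Over the 12 libraries, the genes whose log2 CPM followed each member most closely were looked up among all genes tested, as a description. For Socs3 these were Slc1a4 (Pearson r = 0.997) and Klf5 (r = 0.996), and Klf5 is itself one of the other STAT3 targets listed above. For Pim3 they were Vps33b (0.997) and Ddx42 (0.996), for Lifr Fam49a (0.994) and Jade2 (0.990), for Pim1 Diaph1 (0.981) and Sall1 (0.978), and for Gbx2 Maneal (0.985) and Kndc1 (0.981). Stat3 was followed by Jag1 (0.981) and Grhl1 (0.980), Il6st by Zfp119a (0.987) and Atp2c1 (0.985), Jak1 by Tmem185a (0.985) and Ulbp1 (0.962), and Lif by Vasp (0.935) and Krt13 (0.931). Among the members themselves the closest to Socs3 was Pim3 (0.965), and the closest to Stat3 was Lifr (0.887). The points share the 3 days, which separate most genes, and the correlations say nothing of shared control.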

How the data were processed

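The authors' libraries were directional and made from poly(A) RNA. Their reads were placed on mm9 by STAR 2.3.0e, alignments of low mapping quality and mitochondrial reads were dropped by SAMtools 0.1.19, and featureCounts 1.6.2 gave the counts per RefSeq gene. The sources used here do not give its strand setting. The deposited table holds their raw counts, unnormalized whole numbers for 24495 genes in 12 libraries, and 0 columns were left unused. The authors' own tests with DESeq2 1.16.1 were not used.

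The 9 members and the lists of other pathway genes and markers were chosen with earlier results of these data known. All members are named. Members carry statistics for most changes between days. Differences between the lines are given singly where the unadjusted p was under 0.05, and for some genes on the other days too. Others are given singly where a call depended on a left-out library or differed between the lines. The rest are given as ranges. Of each pathway list, up to 3 genes in each direction called for Day 4 against Day 0 in both lines are named, and for each member the 2 genes of highest Pearson r. One gene of the ligand and receptor list, which stays in its counts and medians, and the promoter sites of 1 other gene are not reported here.

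Counts of all 12 libraries were fitted in R 4.3.3 with edgeR 4.0.16 (TMM, filterByExpr with a minimum count of 10, glmQLFit and glmQLFTest, 1 mean per group, 6 residual degrees of freedom). p-values were adjusted over the 15532 genes tested by the Benjamini-Hochberg method. They rest on the spread between 2 replicates a group, pooled over all 6 groups in the one fit and moderated across genes. The spread of the shCTSL Day 2 libraries thus also enters the tests of comparisons without them. A pseudocount of 0.5 was added for log2 CPM in correlations. Alternatives were RLE normalization, DESeq2 1.42.0, limma-voom (limma 3.58.1) with library weights, no filter on low counts, only the libraries compared, no shCTSL Day 2 libraries, exonic length offsets, a log2 change of at least 1.5, the replicate number as a block, and each library left out. Positions, exonic lengths and promoter windows (250 bases before each start of a protein-coding transcript) come from GENCODE M1 and the mm9 genome, in which all 9 members were found by symbol. Figures were drawn with matplotlib 3.10.9 in Python 3.11.15.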

Additional observations from a re-analysis of the deposited data

How the results depend on the processing

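RLE normalization, exonic length offsets and the omission of the low-count filter moved no count of called members by more than 1.5 times. With a log2 change of at least 1.5, the members called were 3 for Day 2 against Day 0, 1 for Day 4 against Day 2 and 3 for Day 4 against Day 0 in shSC, and 3, 1 and 3 in shCTSL. Of all genes 24.7%, 9.41% and 30.8% were then called in shSC, and 25.6%, 8.45% and 30.2% in shCTSL. In a fit of only the libraries compared, 2 members were called for Day 4 against Day 2 in shCTSL, against 4, and 8.01% of all genes. DESeq2 called 1 member between the lines at Day 2, against 0. Over the left-out libraries, the members called for Day 4 against Day 2 in shSC ran from 3 to 5, with 3 without shSC Day 2 replicate 1 or replicate 2. For shCTSL against shSC at Day 2 they ran from 0 to 4, and for the interactions of line with Day 2 against Day 0 and with Day 4 against Day 2 from 0 to 3. The highest of these counts all came without shCTSL Day 2 replicate 2, when 31.6%, 26% and 14.7% of all genes were called, and the cause was not tested. Direction changed over the left-out libraries for 4 members in shCTSL that were not called: Gbx2 for Day 2 against Day 0 (−0.04 to 0.17), Il6st (−0.80 to 0.22) and Jak1 (−0.19 to 0.44) for Day 2 against Day 0, and Pim3 for Day 4 against Day 2 (−0.0734 to 0.46). Gbx2 for Day 2 against Day 0 in shCTSL also changed sign with exonic length offsets (−0.0215).

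Replicate numbers are shared by the groups but not said to mark a batch. Over 15 pairs of groups, the deviations of same-numbered libraries correlated at −0.465 to 0.257 (median −0.051, 2 pairs above 0.1), so they were not treated as paired. With a replicate block, 6, 4 and 6 members were called for Day 2 against Day 0, Day 4 against Day 2 and Day 4 against Day 0 in shSC, 6, 4 and 5 in shCTSL, and 0 in each comparison between the lines. Of all genes 54.1%, 22.6% and 60.3% were called between these days in shSC, and 55.1%, 21.9% and 59.4% in shCTSL. Il6st for Day 4 against Day 2 in shSC (0.81, adjusted p = 0.0529) was the one call lost.

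Lif rests on 60 to 137 reads a library, and with 2 libraries a group a change near 1.5-fold can be missed.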
